A study of Drosophila melanogaster with 2 samples.

Results

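The nuclear tRNA genes of Drosophila melanogaster were examined for occupancy by castor (cas), a zinc-finger transcription factor. The members were all 290 genes of biotype tRNA on the chromosome arms in the Ensembl annotation, of 24166 annotated genes on the arms, and 22 tRNA genes on other contigs were not members. Castor fused to eGFP was immunoprecipitated with an antibody against GFP from sonicated chromatin of whole embryos, aged 0 to 24 hours, of the transgenic cas-GFP strain. The 2 biological replicates form 1 group, and the design holds no second genotype, treatment or age to compare. Each value averages over all tissues and ages in the collection, and control libraries were not analysed here.

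The data are the authors' peak lists on assembly dm6, in which each peak has an interval, a summit and a signal value that measures its height. A tRNA gene counted as having a peak if it lay within 500 bp of a summit in the conservative list, a thresholded list that combines both replicates. The conservative list held 1880 peaks, 1879 of them on the arms. The longer ranked lists also hold entries that did not pass, each with an irreproducible discovery rate (IDR), which measures how consistently an entry ranks in a pair of peak sets and is given as -log10. All 10 conservative peaks near tRNA genes had a -log10 IDR of at least 2. Read totals are not in the lists, so the depth is unknown, and signal values are not scaled between lists.

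tRNA genes are transcribed by RNA polymerase III. Their promoters lie inside the transcribed region as an A box and a B box, which the factor TFIIIC binds before it brings in TFIIIB upstream of the gene. Most tRNAs are encoded by several gene copies, often of identical sequence, which lie scattered over the genome or in clusters.

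The genes ranged from 71 to 186 bp in length, with a median of 73 bp. They comprised 22 isotypes (initiator methionine and selenocysteine counted separately) and 45 anticodons, and had 95 distinct sequences, since 238 of them had at least 1 identical copy among the members. Outside protein-coding genes lay 156 tRNA genes, 127 lay in an intron of a protein-coding gene, and 7 overlapped a protein-coding exon.

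The following tRNA genes with a peak are shown in the sense direction from the RefSeq genome of the same build, because they differ in what surrounds them. tRNA:Tyr-GTA-1-8 (FBgn0012024, chr3R:8669081-8669174, minus strand) had the highest peak, and tRNA:Leu-TAA-2-1 (FBgn0053536, chr3R:24112964-24113047, plus strand) the next, and neither has an identical copy. tRNA:Val-CAC-2-5 (FBgn0012003, chr3R:19672277-19672349, minus strand) lies alone in an intron. tRNA:Asp-GTC-1-5 (FBgn0051603, chr2L:8541761-8541832, plus strand) is 1 of 12 identical genes. Capitals mark the match to the B box, searched as GTTCNANNC on the sense strand.
tRNA:Tyr-GTA-1-8: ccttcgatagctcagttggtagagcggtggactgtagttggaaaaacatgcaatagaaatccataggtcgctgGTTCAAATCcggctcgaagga
tRNA:Leu-TAA-2-1: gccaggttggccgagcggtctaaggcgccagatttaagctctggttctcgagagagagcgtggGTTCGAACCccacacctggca
tRNA:Val-CAC-2-5: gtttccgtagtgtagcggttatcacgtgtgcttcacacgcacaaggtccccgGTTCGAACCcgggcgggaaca
tRNA:Asp-GTC-1-5: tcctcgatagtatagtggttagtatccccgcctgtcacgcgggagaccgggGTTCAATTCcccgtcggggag

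Windows reaching 50 bp to either side of the summit are shown on the plus strand for the peak that lay beside a protein-coding start and had the highest signal (at tRNA:Tyr-GTA-1-8, chr3R:8669354-8669454), and for a peak far from any protein-coding start (at tRNA:Glu-CTC-2-3, chr3L:22847780-22847880). Capitals mark the central 11 bases around the summit in the first window, and in the second the first bases of the tRNA gene, which lies on the minus strand. The summit is at the centre of both windows.
Window at tRNA:Tyr-GTA-1-8: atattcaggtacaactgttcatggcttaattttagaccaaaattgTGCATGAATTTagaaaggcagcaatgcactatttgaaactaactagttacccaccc
Window at tRNA:Glu-CTC-2-3: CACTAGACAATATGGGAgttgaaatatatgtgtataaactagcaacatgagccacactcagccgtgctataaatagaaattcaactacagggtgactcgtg

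The B box match was present in 271 of the 290 tRNA genes (93.4%) and in all 12 with a peak. The A box core, searched as TNGCNNAG on the sense strand, matched 144 tRNA genes (49.7%) and 6 of the 12 with a peak. Genes with and without a peak thus both carry these promoter words.

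A conservative peak was found at 12 of the 290 tRNA genes, a share of 4.14% (95% Wilson interval 2.38% to 7.09%). Intervals cover counting error only, and neighbouring tRNA genes share summits, so genes are not independent. Of the short noncoding RNA genes (snoRNA, snRNA and other ncRNA genes of at most 300 bp), 2.87% had a peak by the same rule, 35 of 1221. The classes differed: 18 of 924 other ncRNA genes of at most 300 bp had a peak (1.95%). Among snoRNA genes of any length 13 of 269 did (4.83%), and among snRNA genes of any length 5 of 32 (15.6%). Called bases of the arms taken as the middle of a gene of median tRNA length had a summit in reach in 1.39% of positions. Protein-coding genes, whose bodies are longer, had one in 14.7%, 2050 of 13968. The tRNA interval includes the share of the short noncoding genes and lies above that of arm positions, and this difference was not tested.

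The count differed between the replicates' own thresholded lists. These are shorter than the conservative list, with 1248 arm peaks in replicate 1 and 1144 in replicate 2, against 1879. Shares of arm positions or other short genes were not computed for them. With the thresholded list of replicate 1 alone, 9 tRNA genes had a peak (3.10%). The 9 include tRNA:Ser-CGA-1-4 and tRNA:Val-AAC-2-1, which had no conservative peak. With the thresholded list of replicate 2 alone, 2 tRNA genes had a peak (0.690%), tRNA:Tyr-GTA-1-8 and tRNA:Leu-TAA-2-1. Of the 10 conservative peaks near tRNA genes, 6 overlapped a peak in the replicate 1 list, 2 in the replicate 2 list, and 4 in neither. All 10 conservative peaks had a ranked entry in both replicates. The ranked lists of replicates 1 and 2 are long, with 58316 and 88426 arm entries, so such an entry says little about reproducibility.

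The 12 tRNA genes lay beside 10 summits that form 9 regions, 0.532% of the conservative peaks on the arms. The peaks were modest in height: their median signal was 63.9, against 77.5 for the other conservative peaks on the arms, and 2 of the 10 lay above the list's median of 77.3. The distance from gene to summit had a median of 222 bp over the 12 genes and ran from 0 to 444 bp. The 0 comes from an entry of signal 2.07 at tRNA:Phe-GAA-1-2, whose other summit lay 189 bp away. Just outside the limit, tRNA:Leu-CAA-2-1 lay 656 bp from its nearest conservative summit. Over all tRNA genes the median distance was 25.4 kb.

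**Figure D1:**
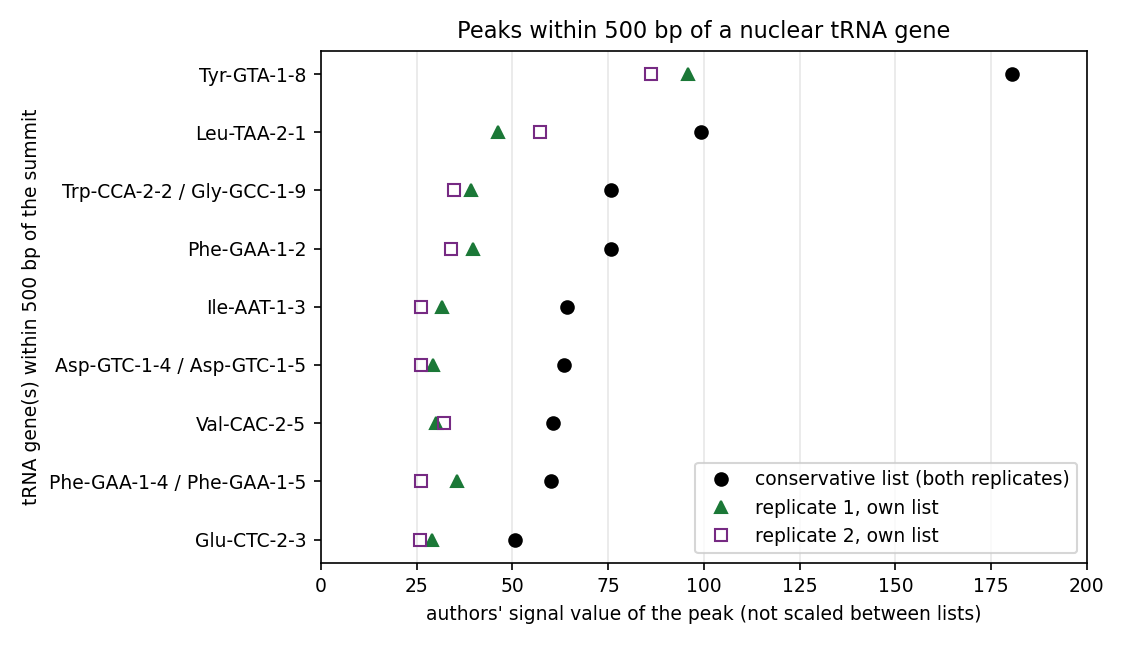
Authors' signal value (horizontal axis) of each of the 9 peak regions within 500 bp of a tRNA gene (vertical axis), in the conservative list and in each replicate's own ranked list; the lists are not scaled to each other. The peak at Tyr-GTA-1-8 has the highest value of the 9 regions in all 3 lists, with 181 in the conservative list, and replicate 1 lies above replicate 2 in 7 of 9 regions.

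The highest peak stood beside tRNA:Tyr-GTA-1-8, a tyrosine tRNA gene from a cluster of 3. This gene lies within introns of p, a gene named for its pink eye color mutants, and of CG8036. The peak spanned 8669249 to 8669558 on 3R, with a signal of 181, rank 182 in the list. The replicates' own lists gave 95.9 for replicate 1 and 86.1 for replicate 2. Its summit lay 230 bp upstream of the tRNA gene and inside CG8036, 214 bp upstream of an internal start of that gene. Its -log10 IDR was 5, the highest value the lists give.

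The next peak, beside the leucine gene tRNA:Leu-TAA-2-1, spanned 24112595 to 24112904 on 3R with a signal of 99.3. Replicate 1 gave 46.2 and replicate 2 gave 57.2. The summit lay 214 bp upstream of this intergenic gene and 361 bp upstream of the CG13605 start, and the tRNA gene itself is nearest to the start of Root, which encodes the ciliary rootlet protein rootletin. These 2 regions are the ones that passed the threshold in both replicates separately.

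A further 4 regions lay at most 144 bp upstream of a protein-coding start. At the tryptophan gene tRNA:Trp-CCA-2-2 and the glycine gene tRNA:Gly-GCC-1-9 on 2R, 1 peak (18639194 to 18639503) had a signal of 75.8, with 39.2 and 34.7 in replicates 1 and 2. Its summit lay 79 bp upstream of CG30122 and 208 bp from the tryptophan gene. At the phenylalanine gene tRNA:Phe-GAA-1-2 on X, the peak (6744127 to 6744436) had a signal of 75.7, with 39.8 and 34.0 in the replicates, and its summit lay 44 bp upstream of RpL17, which encodes a protein of the large ribosomal subunit, against 189 bp from the tRNA gene. These summits were thus nearer the protein-coding start than the tRNA gene.

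The same held for the isoleucine gene tRNA:Ile-AAT-1-3 on 2R, in an intron of ATP8A, which encodes a phospholipid-transporting ATPase. Its peak (13429884 to 13430193) had a signal of 64.3, with 31.5 and 26.0 in replicates 1 and 2. The summit lay inside ATP8A, 144 bp upstream of an internal start of that gene and 243 bp from the tRNA gene. The aspartate genes tRNA:Asp-GTC-1-4 and tRNA:Asp-GTC-1-5 on 2L shared a peak (8541912 to 8542221) with a signal of 63.4, and 29.3 and 26.1 in the replicates. That summit lay 80 bp upstream of Sema1a, the gene of a transmembrane semaphorin that guides axons, and 235 bp from the nearer tRNA gene. The valine gene tRNA:Val-CAC-2-5, alone in an intron of the nicotinamidase gene Naam, had a peak (19671707 to 19672016 on 3R) with a signal of 60.6, and 29.9 and 32.1 in the replicates. Its summit lay 412 bp downstream of the Naam start and 415 bp from the tRNA gene.

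The remaining 2 regions had no protein-coding start within 500 bp. The phenylalanine genes tRNA:Phe-GAA-1-4 and tRNA:Phe-GAA-1-5 on 2R point away from each other, and the summit at 17604690 lay between them, 83 bp from the first and 81 bp from the second. Its signal was 60.0, with 35.4 in replicate 1 and 26.0 in replicate 2, and the nearest protein-coding start, of CG42649, was 5083 bp away. At the glutamate gene tRNA:Glu-CTC-2-3 on 3L, the peak (22847675 to 22847984) had a signal of 50.7, with 28.9 and 25.8 in the replicates, and its summit lay 34 bp upstream of the tRNA gene and 5682 bp from the start of CG32462. Both peaks were weaker than the list's median. That of the phenylalanine genes overlapped a thresholded peak of replicate 1 but none of replicate 2, and that at tRNA:Glu-CTC-2-3 overlapped none in either replicate.

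A single conservative summit lay inside a tRNA gene, tRNA:Phe-GAA-1-2, in an entry with a signal of 2.07. That entry and the one of signal 75.7 beside it came from the same pair of replicate peaks and were counted as 1 region. Of all 10 peak intervals, 3 overlapped a tRNA gene. Over the 9 regions, the log2 ratio of the replicate 1 signal to the replicate 2 signal had a median of 0.17 (SD 0.22), on values that are not scaled between the lists.

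Because 7 of the 9 regions had a protein-coding start within 500 bp of the summit, the tRNA genes were divided by the same distance from such a start. Of the 33 tRNA genes with a start that near, 7 had a peak, 21.2% (Wilson interval 10.7% to 37.8%). Short noncoding RNA genes with a start that near had one in 15 of 179 cases, 8.38% (5.14% to 13.4%), and called bases of the arms in 6.81%. Of the 257 tRNA genes away from starts, 5 had a peak, 1.95% (0.834% to 4.47%). The share was 1.92% for short noncoding RNA genes (20 of 1042) and 0.661% for bases. Among the 5 tRNA genes, tRNA:Asp-GTC-1-4 and tRNA:Val-CAC-2-5 had summits 80 and 412 bp from a protein-coding start. The rest lay in the 2 regions whose summits had no start within 500 bp. Away from starts the tRNA share was close to that of the other short genes in this list, but in the pooled list it was 5.06% (2.98% to 8.46%) against 2.40% (1.63% to 3.52%). Near starts its interval lies above the share of bases and overlaps that of the other short genes, and these differences were not tested. Read from the other side, 7 of the 31 protein-coding starts with a tRNA gene within 500 bp had a conservative summit within 500 bp, 22.6% (11.4% to 39.8%), against 9.40% of the other 19244 starts. The small numbers rest on few regions, the same that prompted the division. With the list of replicate 2 alone, 2 of the 33 tRNA genes near a start had a peak and none of the 257 others did. Requiring a summit within 200 bp, or a peak interval that overlaps the gene, left 1 of the 33 (3.03%). This gene was tRNA:Phe-GAA-1-2, and only its entry of signal 2.07 overlapped it. Of the 4 tRNA genes with a start within 200 bp none had a peak. For the replicate 2 list and these other settings, no share of bases or other short genes was computed.

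**Figure D2:**
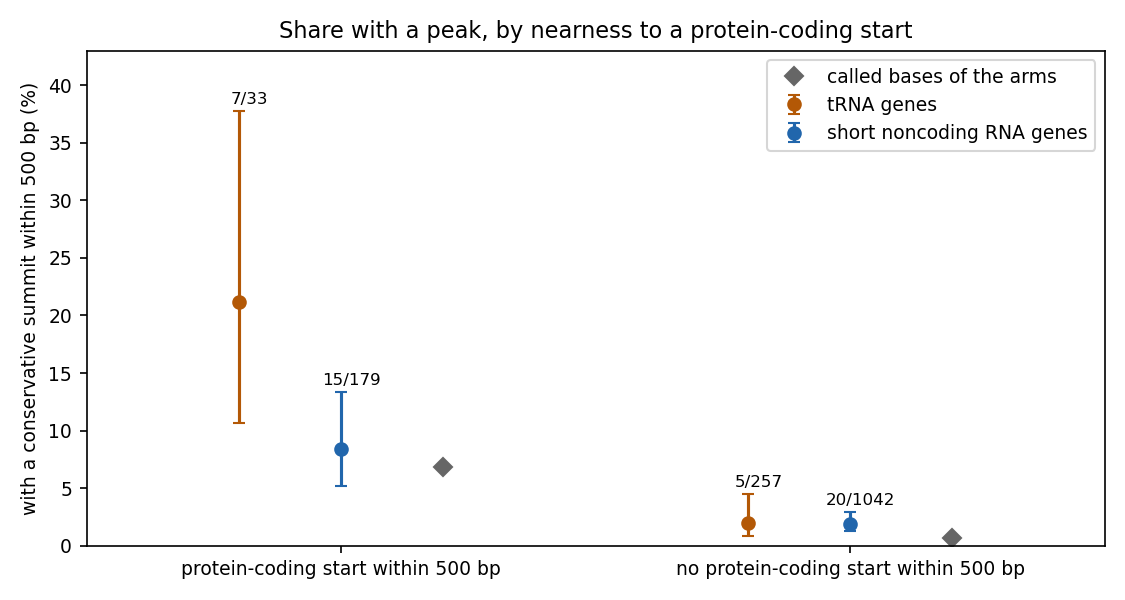
Share of tRNA genes, of short noncoding RNA genes and of called arm bases with a conservative summit within 500 bp (vertical axis, %), with and without a protein-coding start within 500 bp; bars are 95% Wilson intervals and the fractions give counts. The tRNA share is 21.2% near starts and 1.95% away from them.

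By location, 9 of the 156 intergenic tRNA genes had a peak (5.77%), 3 of the 127 in introns (2.36%) and 0 of the 7 over exons. The intervals of the first pair of shares overlap. By chromosome arm, peaks stood at 2 of 41 tRNA genes on 2L, 5 of 98 on 2R, 1 of 48 on 3L, 3 of 79 on 3R and 1 of 24 on X, while the arms 4 and Y hold no tRNA genes. Genes with an identical copy had a peak in 10 of 238 cases (4.20%) and those of unique sequence in 2 of 52 (3.85%), which are close. Reads from identical copies cannot be told apart within the gene bodies themselves, and how the authors treated such reads is not given in the sources used here.

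Peaks occurred at 9 of the 22 isotypes. Phenylalanine genes had the most, with 3 of 8 in 2 regions, followed by aspartate genes with 2 of 14 in 1 region. Leucine (22 genes), glycine (20), glutamate (19), valine (15), isoleucine (11), tyrosine (10) and tryptophan (8) had 1 each. No conservative peak was found at any gene of the other 13 isotypes, among them arginine with 26 genes, serine with 20 and lysine with 19. Differences between isotypes were not tested.

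**Figure D3:**
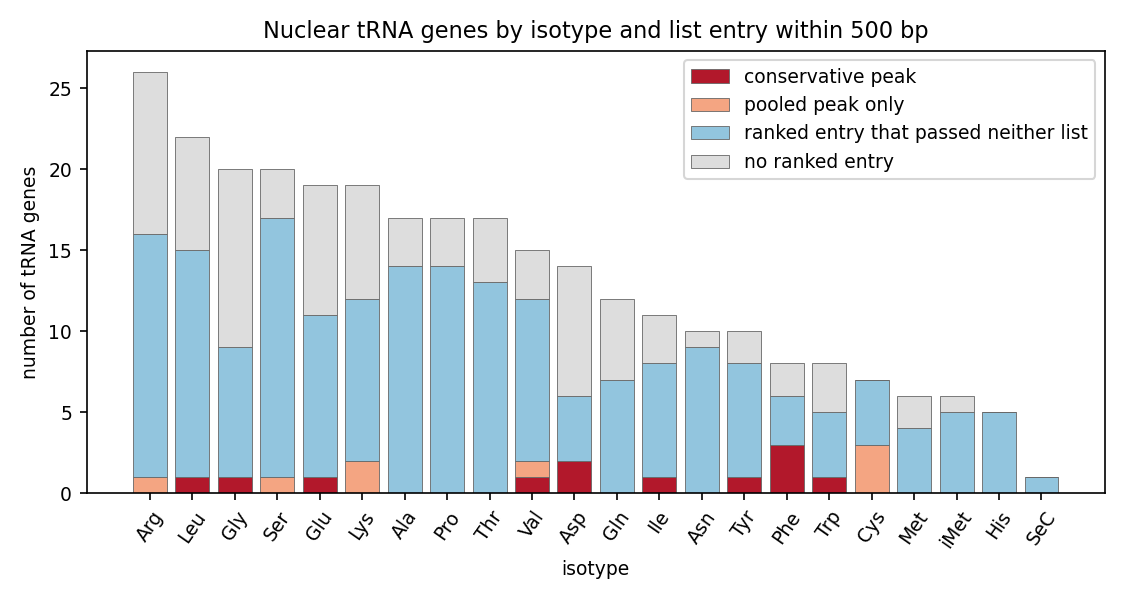
Number of tRNA genes (vertical axis) of each isotype (horizontal axis), divided by the entry found within 500 bp: a conservative peak, a peak of the pooled list only, a ranked entry that passed neither, or none. Phenylalanine has 3 of 8 genes with a conservative peak and arginine 0 of 26.

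Linking tRNA genes that lie within 5 kb of each other gave 68 clusters with 214 genes and left 76 single genes. A conservative peak was found at 6 clusters (8.82%) and at 3 single genes (3.95%), that is at 9 of 144 loci (6.25%). Per gene, 9 of the 214 clustered genes (4.21%) and 3 of the 76 single genes (3.95%) had a peak, so the shares were close. Of 9 clusters with at least 6 tRNA genes, which together hold 67 genes, 1 had a conservative peak (11.1%) and 3 a peak of the pooled list (33.3%), against 9 of all 68 clusters in the pooled list (13.2%). These differences were not tested.

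Of the 5 clusters with most tRNA genes, 2 hold 11 genes each. The one on 2R (6161535 to 6171759) holds asparagine, arginine, lysine and isoleucine genes, had no conservative peak and had ranked entries at 10 genes, with a highest signal of 54.0. The one on 3R (17617761 to 17631750) holds alanine, proline, threonine and valine genes, also had no conservative peak and had ranked entries at 10 genes, up to a signal of 29.9. The cluster of 7 on 2R with isoleucine and leucine genes (13430282 to 13432794) was the one with a conservative peak, at its edge beside an internal start of ATP8A. The clusters of 7 with glutamate and initiator methionine genes (2R, 19725620 to 19728958) and with arginine and serine genes (X, 14014814 to 14017284) had none, with ranked entries at 3 and 5 genes.

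In the pooled list, the other thresholded list that combines the replicates (2237 peaks), 20 tRNA genes had a peak (6.90%, 4.51% to 10.4%), against 3.6% of short noncoding RNA genes and 1.66% of arm positions. They included all 12 above. The other 8 lay in 3 regions, named here after their values were seen, whose summits each lay over 2 kb from a protein-coding start. The first was at tRNA:Lys-CTT-1-5 and tRNA:Arg-ACG-1-4 in the 2R cluster of 11 genes (6171464 to 6171773), with a pooled signal of 54.0. The second was at tRNA:Ser-CGA-1-4 and tRNA:Val-AAC-2-1 in an intron of hts, the adducin gene, with a signal of 50.5 and no ranked entry in replicate 2. The last was on 3L (3096091 to 3096400) in an intron of the chitinase gene Cht7, with a signal of 42.9, at the cysteine genes tRNA:Cys-GCA-1-1, tRNA:Cys-GCA-1-2 and tRNA:Cys-GCA-1-3 and the lysine gene tRNA:Lys-CTT-1-12. In this list 7 of the 33 tRNA genes near a start had a peak (21.2%, other short genes 10.6%, bases 7.98%) and 13 of the 257 others (5.06%, bases 0.803%).

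The ranked list behind the conservative peaks held 104609 entries on the arms, of which 1.86% had a -log10 IDR of at least 2. An entry lay within 500 bp of 204 tRNA genes (70.3%, 64.8% to 75.3%), against 55.2% of arm positions, and 86 tRNA genes had none. Near protein-coding starts the share was 81.8% (27 of 33) against 73.7% of bases, and away from starts 68.9% (177 of 257) against 52.7%. Short noncoding RNA genes had an entry in 64.8% of cases near starts and in 66.4% away from them. These entries were mostly weak, as was the ranked list as a whole. The 239 ranked summits within 500 bp of a tRNA gene had a median -log10 IDR of 0.114 and a median signal of 18.2. All ranked arm entries had medians of 0.0948 and 16.6. A -log10 IDR of at least 2 was reached by 4.18% of the summits near tRNA genes, and this difference from the whole list was not tested. The best -log10 IDR was at least 2 at 12 tRNA genes, from 1 to under 2 at 17 and under 1 at 175, with a median of 0.140. In their own ranked lists, replicate 1 had an entry at 193 tRNA genes and replicate 2 at 158, and 119 genes had one in both. The share of arm positions or other short genes was not computed for these 2 long lists, so the counts cannot be set against a background.

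**Figure D4:**
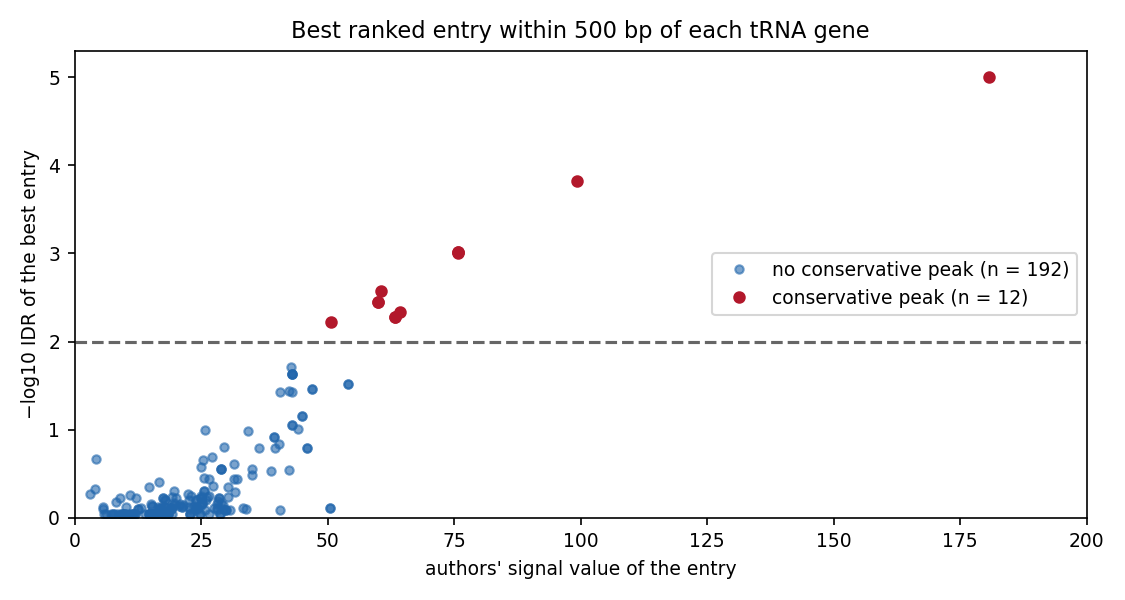
Best ranked entry within 500 bp of each of the 204 tRNA genes that have one, by the authors' signal value (horizontal axis) and -log10 IDR (vertical axis), with a dashed line at a -log10 IDR of 2. The 12 genes with a conservative peak lie above the line, and genes that share a summit coincide. At tRNA:Phe-GAA-1-2 the signal drawn is the 75.7 of its other entry, since the entry with the best -log10 IDR has a signal of 2.07.

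Among tRNA genes without a conservative peak, the highest -log10 IDR was 1.72, at tRNA:Asp-GTC-1-6 (2L, 8620028 to 8620099), in an intron of Sema1a and 52599 bp from the nearest protein-coding start. This entry had a signal of 42.8, with 21.0 in replicate 1 and 25.5 in replicate 2. The cysteine and lysine genes in Cht7 followed with a shared entry of -log10 IDR 1.63, with 21.7 and 23.1 in the replicates. The selenocysteine gene tRNA:SeC-TCA-1-1 (2R, 11357564 to 11357650) had 1 entry, with a -log10 IDR of 0.298 and a signal of 31.6. Replicate 1 gave 22.0 there and replicate 2 had no entry.

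Ranked summits were placed relative to the tRNA gene starts, in the direction of transcription. A summit in reach of several starts was counted once for each, so the counts are pairs of a summit and a start. Ranked summits were densest in the 100 bp after the start, with 1.45 per kb from 42 pairs. That bin runs past the end of a tRNA gene of median length. The 100 bp upstream had 1.21 per kb from 35 pairs, close to the 1.17 per kb from 34 in each of 3 bins farther away. The mean over 1000 bp on either side was 0.974 per kb, and over all called arm bases 0.763. Protein-coding starts had their densest bin just upstream, with 1.58 per kb. Inside tRNA genes lay 32 ranked summits, with a median signal of 19.6 and a highest one of 45.9. Of these, 1 had a -log10 IDR of at least 2, the entry of low signal at tRNA:Phe-GAA-1-2. No test was made of the profile, whose bins hold few summits.

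**Figure D5:**
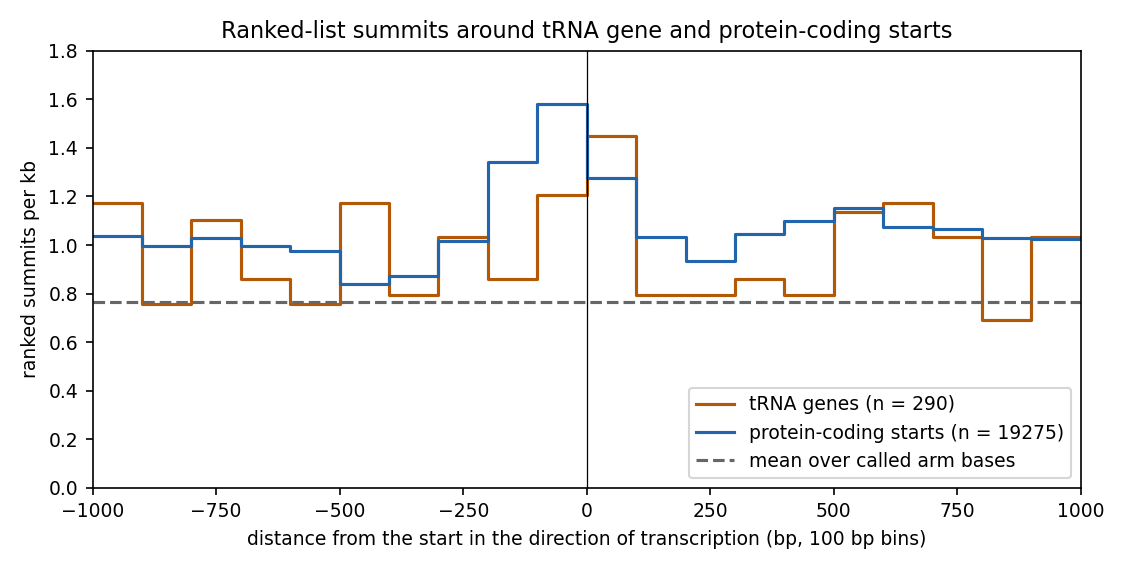
Ranked summits per kb (vertical axis) in 100 bp bins around the starts of the 290 tRNA genes and of 19275 protein-coding starts (horizontal axis, bp in the direction of transcription), with the mean over called arm bases as a dashed line. The tRNA genes reach 1.45 per kb in the 100 bp after the start and the protein-coding starts 1.58 in the 100 bp upstream.

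The windows of 50 bp to either side of the 9 region summits had a GC content of 35.6% to 51.5%, with a median of 40.6%, against 32.7% at all other conservative summits. Words were searched on both strands in the windows of all 10 entries and of 1869 other summits. TATCGATA, the DREF word, was in 1 window near a tRNA gene, that upstream of CG30122, against 2.68% of the others. CGATA was in 2 against 17.7%, GAGAG, the GAGA factor word, in 2 against 10.3%, and GGTCACACT in 0 against 0.803%. The B box GTTCNANNC was in 1, the entry inside tRNA:Phe-GAA-1-2, against 2.94%. With 10 windows, each count of 1 changes a share by 10 percentage points.

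Other genes of the RNA polymerase III system were examined by the same rule. Of 109 other genes of RNA polymerase III transcripts, 4 of them 5S pseudogenes, 1 had a conservative peak (0.917%). The share was 2.87% for short noncoding RNA genes and 1.39% for arm positions. Because 100 of the 109 are 5S genes and pseudogenes, the share over all 109 mostly reflects these. Of the 9 other genes, 1 had a peak and 6 had a ranked entry. The gene with the peak was the 7SK RNA gene, annotated as snRNA:7SKa, whose RNA restrains the elongation factor P-TEFb. Its peak (3R, 7474623 to 7474932) had a signal of 70.6, with 42.4 in replicate 1 and 29.9 in replicate 2, and its summit lay 218 bp from the gene's start and 997 bp from the nearest protein-coding start, of CG1142. None of the 96 5S rRNA genes and 4 5S pseudogenes had a peak, and 2 of the genes had a ranked entry. These are near-identical repeats to which reads are hard to assign. Among the other listed transcripts, the U6 genes snRNA:U6:96Ab and snRNA:U6:96Ac shared a ranked entry of signal 62.6, RNaseMRP:RNA had one of 50.4, and both 7SL genes had none.

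Of the 9 matched RNA polymerase III factors and regulators, 2 had a peak, both at their own start and both subunits of TFIIIB. None of the others did, among them Trf and Tbp, whose best ranked signals were 36.7 and 17.1. Bdp1 (2L) had a peak with a signal of 153, with 74.4 and 76.5 in replicates 1 and 2, whose summit lay 54 bp from the start. Brf (3R) had one of 89.5, with 40.1 and 47.7, at 109 bp. Both signals are above the list's median of 77.3. Of 20 tRNA processing and modification genes 3 had a peak, and that at Tcs5, a subunit of the KEOPS complex, lay at the gene's own start, with a signal of 635. The peak beyond the 3′ end of Tgt, which encodes the queuine transferase, had a signal of 119 and lay 1679 bp from the gene's own start and 13 bp from that of CG5001. Beside the 14.7% of all protein-coding genes, neither list's share was tested.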

How the data were processed

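Both replicates belong to the single group, with numbers taken from the labels. Per the deposited README texts, the authors derived each peak list on dm6 from the alignments it covers and other inputs that were not used here. Which aligner and peak caller they ran is not given in the sources used here. Signal values are the authors' own per peak and not scaled between lists, and the deposited ranked lists give the -log10 IDR. Depth is unknown. Gene positions came from Ensembl release 115 (BDGP6.54) and sequences from the RefSeq genome of the same build. A protein-coding start was near when within 500 bp of the gene. Overlap of peaks meant at least 1 bp. Shares have 95% Wilson intervals, and no test between groups was possible with 1 group. The window counts were tested on simulated data.

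Named were all tRNA genes with a conservative peak (at most 40), the gene of the start nearest to each summit, the 5 largest clusters, the 5 tRNA genes without a peak with the highest -log10 IDR, the selenocysteine gene and listed genes with a peak; others were named after their values were seen. The members, lists and alternatives were chosen with earlier results of these data known. Of the listed symbols, TfIIIC matched no gene and JhI-1 is an older name of RNaseZ. The values of 1 listed gene are not reported here. Alternatives were the pooled list, the upper 50% by signal, other reaches, cluster gaps and start distances, and each replicate's list alone. Python 3.11.15, numpy 2.4.6, pandas 2.3.3, scipy 1.17.1 and matplotlib 3.10.9 were used.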

Additional observations from a re-analysis of the deposited data

How the results depend on the processing

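Of 63 alternative values, 32 stayed within 1.5 times the reported count or within the reported interval or spread, and 31 moved. The pooled list gave 20 tRNA genes with a peak and 5.06% away from protein-coding starts. The upper 50% of the peaks by signal left 2 tRNA genes (0.690%), 1 cluster and 2 summits of median signal 140, with 6.06% near starts and 0% away from them. A reach of 200 bp gave 4 tRNA genes (1.38%), 2 clusters, 4 summits, 3.03% near starts and 44.1% with a ranked entry, and a reach of 1000 bp gave 91.4% with a ranked entry. Requiring the peak interval to overlap the gene gave 4 tRNA genes (1.38%), 2 clusters, 3 summits and 3.03% near starts. With a protein-coding start within 200 bp, 0 of 4 tRNA genes (0%) had a peak. Leaving out each replicate in turn gave 2 to 9 tRNA genes (0.690% to 3.10%), 1 to 4 clusters, 2 to 6 summits, median signals of 39.5 to 71.6, 6.06% to 15.2% near starts, 0% to 1.56% away from them and 54.5% to 66.6% with a ranked entry, the low counts of genes and summits being those of replicate 2 alone. Other cluster gaps moved no value, nor did leaving out signals under 10, which was chosen after seeing the data. With unknown depth, no peak at a tRNA gene means none in these lists, not an absence of castor. Peaks near starts cannot be assigned to the tRNA gene or the protein-coding gene, and the effect of repeated tRNA sequence on the calls was not tested.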
